A study of Mus musculus with 4 samples.

Results

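The genes described here are the RasGRP exchange factors, the Rap1 GTPases, the GTPase-activating protein Rasa3 and the Dok adaptors of mouse megakaryocytes, whose fragments become blood platelets. They are 10 genes of 41214 in the count tables, Rasgrp1, Rasgrp2, Rasgrp3, Rasgrp4, Rap1a, Rap1b, Rasa3, Dok1, Dok2 and Dok3, found by symbol. They were chosen by their counts in all 4 libraries, Rasgrp3 and Dok2 for how far they differed between genotypes. Their values are therefore given as a description, with no test.

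The libraries came from C57Bl/6 mice aged 8 weeks. Megakaryocytes had been sorted from tibiae, femora and humeri as lineage-negative cells positive for cKit, CD41 and CD61. There were 4 groups of 1 library each. They were Gfi1b knockout with PF4-Cre, Gfi1b wild-type with PF4-Cre, Gfi1b knockout with ROSA-Cre and Gfi1b wild-type with ROSA-Cre. The labels give a Cre model for the wild-type groups too. PF4-Cre uses the promoter of Pf4, a platelet chemokine gene that is active in megakaryocytes. Of ROSA-Cre, the labels give neither the form of the Cre nor whether it was induced, and the number of mice behind each library is not stated. Gfi1b encodes a zinc finger repressor needed for the megakaryocyte and red cell lineages.

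Gene counts totalled 59595680 and 61652843 in the PF4-Cre knockout and wild-type libraries, and 21835165 and 24869421 in the ROSA-Cre knockout and wild-type libraries. A count of 0 allowed up to 0.0496, 0.0502, 0.134 and 0.122 CPM (3 counts, per 1000000 TMM-normalised gene reads) in the same order, and such limits and all intervals below cover counting error only. Gfi1b itself had 84744 counts in the PF4-Cre library labelled knockout against 10137 in its wild-type library, and 55122 against 5864 in ROSA-Cre. Exon-level counts were not analysed here and the labels do not name the deleted exons, so this gene count could not check the labels, and knockout below means labelled knockout. All 14 megakaryocyte markers had counts, with Itga2b, which encodes CD41, at 2470 and 2381.5 CPM in the PF4-Cre knockout and wild-type libraries and 2155 and 3570 CPM in the ROSA-Cre ones. Their sum was 8077 and 7115 CPM in the PF4-Cre and ROSA-Cre knockouts against 7266 and 10120 CPM in wild-type, with 5 higher and 3 lower by the genotype test described below. Of 10 erythroid markers 4 were higher, all globin genes (Hba-a1, Hba-a2, Hbb-bs and Hbb-bt), and 3 were lower (Klf1, Ermap and Rhag). The sum of the 10 was 200.4 and 329.3 CPM in the PF4-Cre and ROSA-Cre knockouts against 39.2 and 104.2 CPM in wild-type. Hbb-bs, the most abundant on average, had 135.4 and 221.3 CPM of it against 7.30 and 37.7 CPM. The higher sum was thus one of globin genes, while Klf1 had ratios of 0.232 and 0.146. Of 9 stem and progenitor markers 2 were higher and 1 lower, at 926.8 and 943.1 CPM in the knockouts against 783.1 and 615.1 CPM in wild-type (mostly Meis1). In bulk RNA, fewer cells of a type and less RNA per cell cannot be told apart.

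Ras and Rap GTPases are switches that are on when bound to GTP. Exchange factors load GTP, GTPase-activating proteins speed its hydrolysis, and the RasGRP family joins this switch to diacylglycerol and calcium made at activated receptors. In platelets, RasGRP2 (also called CalDAG-GEFI) turns on Rap1, RASA3 keeps it off at rest, and active Rap1 drives talin-dependent opening of the integrin made of CD41 and CD61. Dok proteins are adaptors phosphorylated by tyrosine kinases, and Dok1 and Dok2 recruit a Ras GTPase-activating protein that dampens the signal.

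One exchange factor, Rasgrp3, was present in both knockout libraries and nearly silent in both wild-type libraries, whereas the adaptor Dok2 was lower in both knockout libraries. Rap1a and Rap1b were slightly higher in both knockout libraries, Dok3 was lower in both, and Rasa3 and Dok1 had ratios to wild-type between 0.901 and 1.07. Rasgrp2 and Rasgrp4 were higher in the PF4-Cre knockout and lower in the ROSA-Cre knockout, each against its own wild-type library. Knockout over wild-type was at least 2-fold in both models for 1 of the 10 genes, against 7.54% of all 15063 tested genes, and at least 2-fold lower in both for 1, against 1.59%. These shares are given beside counts that the choice of genes had used, and nothing is read from them. The median log2 ratio was 0.14 over the 10 genes for PF4-Cre and -0.15 over the 9 with a ratio for ROSA-Cre, beside -0.05 and -0.0015 over the tested genes that had one.

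**Figure D1:**
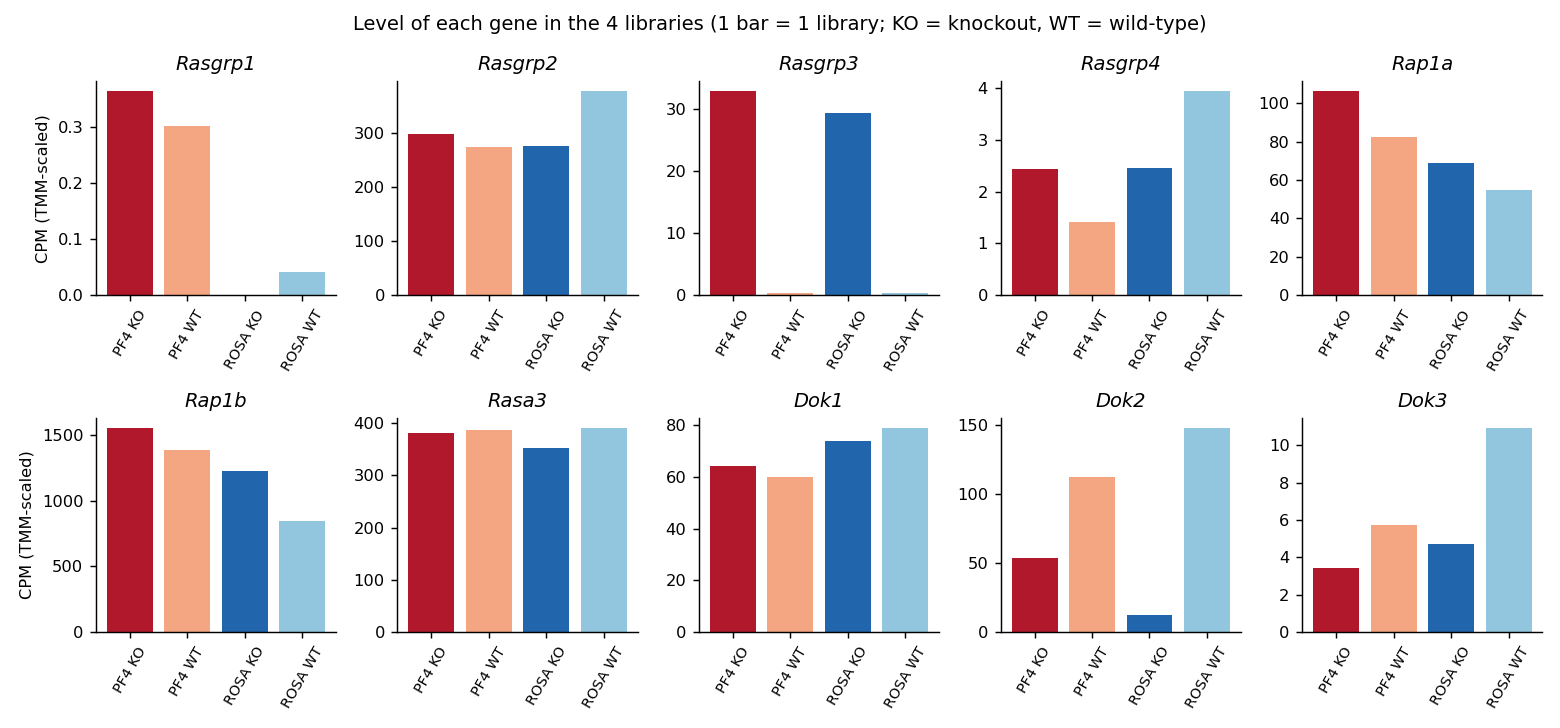
Each panel shows 1 gene, with its level in CPM on TMM-normalised library sizes on the vertical axis and 1 bar per library (KO, knockout; WT, wild-type; PF4 and ROSA, the Cre model), each axis starting at 0. Rasgrp3 stands at 32.8 and 29.3 CPM in the knockout libraries and at 0.385 and 0.325 CPM in the wild-type ones, and Dok2 is lowest in the ROSA-Cre knockout at 12.4 CPM.

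RefSeq promoter windows (GRCm38.p6, 250 bases before to 50 after an annotated start) were found for 6 of the 10 genes. Those of Rasgrp3, whose counts differed most between genotypes, are printed with those of its paralogue Rasgrp2, which was abundant in all 4 libraries. Capitals mark AATC, the core letters bound by GFI1 proteins, or GATT on the other strand. The Rasgrp3 windows lie at chr17:75435655-75435954 and chr17:75465288-75465587, and the Rasgrp2 windows at chr19:6399625-6399924 and chr19:6401455-6401754, all on the plus strand.
Rasgrp3 upstream window: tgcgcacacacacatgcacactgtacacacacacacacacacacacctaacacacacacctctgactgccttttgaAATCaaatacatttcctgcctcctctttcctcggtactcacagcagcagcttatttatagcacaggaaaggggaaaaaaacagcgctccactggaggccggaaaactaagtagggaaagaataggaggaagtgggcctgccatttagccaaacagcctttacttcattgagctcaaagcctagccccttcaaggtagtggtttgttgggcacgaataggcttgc
Rasgrp3 downstream window: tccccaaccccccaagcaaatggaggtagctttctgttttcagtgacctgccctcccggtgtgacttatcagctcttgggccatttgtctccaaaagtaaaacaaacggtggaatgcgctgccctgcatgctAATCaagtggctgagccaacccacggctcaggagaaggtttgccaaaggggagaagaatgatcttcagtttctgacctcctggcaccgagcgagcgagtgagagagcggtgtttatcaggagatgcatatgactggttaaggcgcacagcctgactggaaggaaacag
Rasgrp2 upstream window: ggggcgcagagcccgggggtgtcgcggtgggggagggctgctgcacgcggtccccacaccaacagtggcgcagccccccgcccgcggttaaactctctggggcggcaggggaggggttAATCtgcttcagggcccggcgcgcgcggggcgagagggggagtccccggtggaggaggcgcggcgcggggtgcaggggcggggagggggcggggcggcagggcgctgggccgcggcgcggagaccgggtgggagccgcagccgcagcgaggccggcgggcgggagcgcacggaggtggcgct
Rasgrp2 downstream window: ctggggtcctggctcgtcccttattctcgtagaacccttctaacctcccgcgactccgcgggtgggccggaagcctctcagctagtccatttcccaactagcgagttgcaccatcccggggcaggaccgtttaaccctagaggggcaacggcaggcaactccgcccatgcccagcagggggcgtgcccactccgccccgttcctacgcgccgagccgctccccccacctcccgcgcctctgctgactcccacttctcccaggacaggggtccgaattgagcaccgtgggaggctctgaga

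The AATC core, searched on both strands, occurred once in each Rasgrp3 window, at bases 77 to 80 and 133 to 136 counted from the 5′ end, once in the upstream Rasgrp2 window and 0 times in its downstream window. It was present in 5 of the 8 windows of these genes, against 73.1% of all 32851 promoter windows. The longer AAATCA, which contains that core, was found once in the upstream Rasgrp3 window and in 0 of the other 7 windows of these genes, against 14.0% of all windows. AGATAA, the only form of the GATA letters searched, was in none of the 8 windows (11.2% of all windows). The related form TGATAA was not counted, so no share over all windows is given for it. It can be read in the Rasgrp1 window and, as TTATCA on the other strand, in the downstream Rasgrp3 window. The ETS letters CGGAAG, sharing no bases with an AATC match in these windows, were in 1 window each of Rasgrp2, Rap1b and Rasa3 (16.9%). These matches describe letters only, and a gene count cannot say from which start the Rasgrp3 reads came.

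Among the RasGRP exchange factors, Rasgrp2 was the most abundant per length in every library. Rasgrp2 (ENSMUSG00000032946, chromosome 19 from 6399340 to 6415216, plus strand, protein coding) had 18010 counts (297.7 CPM) in the PF4-Cre knockout against 16398 (274.4 CPM) in its wild-type library, a ratio of 1.09 (95% Clopper-Pearson counting interval 1.06 to 1.11). In ROSA-Cre it had 6187 counts (276.3 CPM) in the knockout against 9269 (376.6 CPM) in wild-type, a ratio of 0.734 (0.71 to 0.758). The knockout libraries were thus close to each other and the wild-type libraries apart. The directions were opposite, and with 1 library in each group that difference could not be set against replicate error.

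Rasgrp3 (ENSMUSG00000071042, chromosome 17 from 75435896 to 75529054, plus strand) is an exchange factor best known from B cells and endothelium. It had 1984 counts in the PF4-Cre knockout against 23 in wild-type, and in ROSA-Cre 655 in the knockout against 8 in wild-type. The ratios were 85.2 (interval 56.6 to 134.8) and 90.0 (45.4 to 209.3), and the counting intervals overlapped almost wholly. Among 10594 genes averaging 5 CPM or more, the ratio ranked 10 from the highest in both models. Rasgrp3 reached that average only through its knockout libraries, and it had been chosen for this difference, so its rank is a description only. No 50-base stretch of its annotated transcripts occurred in a transcript of another gene.

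Rasgrp3 in the knockouts still lay far below Rasgrp2. Per kilobase of the principal transcript (the longest one tagged APPRIS principal), Rasgrp3 stood at 6.95 and 6.20 CPM per kb in the PF4-Cre and ROSA-Cre knockouts, against 0.0815 and 0.0689 in their wild-type libraries. Rasgrp2 stood at 129.7 and 120.3 CPM per kb in those knockouts, against 119.5 and 164.0 in wild-type. Rasgrp3 was thus 5.06% and 4.88% of the summed RasGRP level in the knockouts and 0.068% and 0.0417% in wild-type. Rasgrp2 made up 94.5% and 94.7% in the knockouts and 99.6% and 99.4% in wild-type. Rasgrp2 has 24 annotated transcripts, and over the union of its annotated exons (12384 bases in place of 2296) its level was 24.0 and 22.3 CPM per kb in the knockouts and 22.2 and 30.4 in wild-type. On that length Rasgrp3 was 18.7% and 18.1% of the RasGRP sum in the PF4-Cre and ROSA-Cre knockouts against 0.293% and 0.179% in wild-type, and Rasgrp2 was 79.9% and 80.5% against 98.5% and 97.8%.

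RasGRP3 is known from B cells and endothelial cells, whose markers were therefore counted. Of the B cell markers, 0 of 8 tested passed edgeR's genotype test in either direction (2 lower and 0 higher at an unadjusted p under 0.05, 0 by DESeq2). Their summed level was 23.5 and 20.8 CPM in the PF4-Cre and ROSA-Cre knockouts, against 31.6 and 28.2 CPM in wild-type, most of it Cd79b, and Pax5 had at most 14 counts in any library. Of 9 endothelial markers, 4 of 7 tested were higher and 0 lower (0 lower too at an unadjusted p under 0.05 and by DESeq2), beside 12.6% and 9.59% of all tested genes. The endothelial sums were 359.3 and 306.3 CPM in the knockouts against 235.8 and 198.7 CPM in wild-type, Erg being the most abundant on average. The higher ones were Plvap (ratios 31.9 in PF4-Cre and 18.6 in ROSA-Cre), Emcn (5.62 and 11.6), Egfl7 (2.86 and 2.33) and Erg (1.20 and 1.83). Erg passed only at the edge of the 0.05 threshold (edgeR adjusted p = 0.04995). Kdr (ratios 1.89 in PF4-Cre and 0.914 in ROSA-Cre), Tek (0.914 and 1.07) and Flt1 (1.09 and 0.0999) did not pass. The other members, Cdh5 and Cldn5, had 0 to 6 counts in every library. Only a part of the endothelial markers thus rose with Rasgrp3, and the part of such cells in the Rasgrp3 values was not tested.

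Rasgrp1 (ENSMUSG00000027347, chromosome 2 from 117279993 to 117343001, minus strand), the RasGRP of T cells, was at the edge of detection. It had 22 counts in the PF4-Cre knockout against 18 in wild-type, a ratio of 1.21 (interval 0.618 to 2.39), and 0 in the ROSA-Cre knockout against 1 in wild-type, where no ratio is given. Its level of 0.364 and 0.301 CPM in the PF4-Cre knockout and wild-type libraries exceeded the 0.0406 CPM of the ROSA-Cre wild-type library. T cell markers were low as well, summing to 5.14 and 4.56 CPM in the PF4-Cre and ROSA-Cre knockouts and 5.42 and 3.98 CPM in wild-type. Of those 10 markers, 3 were tested and 0 passed edgeR's test in either direction (1 higher and 1 lower at an unadjusted p under 0.05, 0 by DESeq2), Lck was the most abundant, and Cd3e had at most 3 counts.

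Rasgrp4 (ENSMUSG00000030589, chromosome 7 from 29134851 to 29153961, plus strand), known from mast cells and myeloid precursors, had 147 counts in the PF4-Cre knockout against 85 in wild-type, and in ROSA-Cre 55 in the knockout against 97 in wild-type. The ratios were 1.71 (interval 1.30 to 2.26) and 0.623 (0.439 to 0.876), in opposite directions. At 2.43 and 2.46 CPM the knockout libraries nearly coincided, while the wild-type libraries stood apart at 1.42 CPM in PF4-Cre and 3.94 CPM in ROSA-Cre. Its exons share 978 bases (15.4% of its exonic length) with exons of Fam98c on the opposite strand. Of its 7063 distinct 50-base stretches, searched on both strands, 985 recur in other transcripts, 885 of them in Fam98c, the gene of that same overlap. Fam98c had 3319 and 3346 counts in the PF4-Cre knockout and wild-type libraries and 1403 and 1846 in the ROSA-Cre ones, so Rasgrp4 is uncertain. Mast cell and basophil markers, with 1 higher and 1 lower of 6 tested, Prss34 the most abundant on average and Tpsab1 at 0 in every library, summed to 98.6 and 117.0 CPM in the knockouts against 96.2 and 103.1 CPM in wild-type, and their part in the Rasgrp4 values was not tested.

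**Figure D2:**
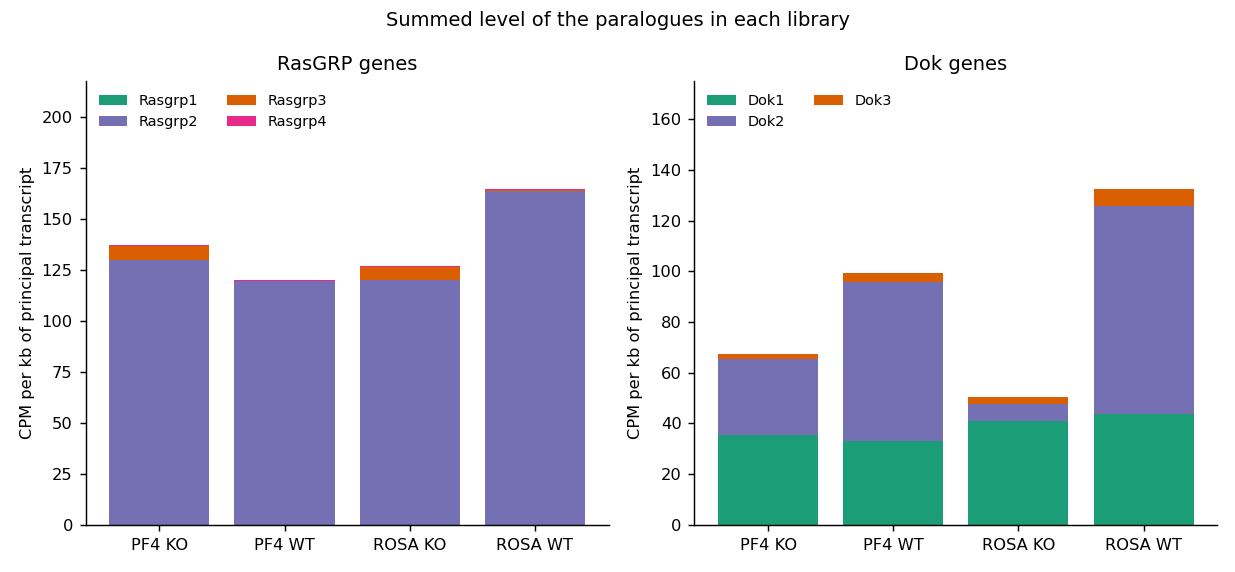
Stacked bars give the summed level of the RasGRP genes (left) and Dok genes (right) in each library, in CPM per kb of principal transcript, with 1 colour per gene (KO, knockout; WT, wild-type). On this length Rasgrp2 fills most of each RasGRP bar, with Rasgrp3 at 5.06% and 4.88% in the knockouts, while Dok2 is 13.7% of the Dok bar in the ROSA-Cre knockout against 62.0% in its wild-type library.

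Rap1a and Rap1b, the GTPases that RasGRP2 and, beside Ras, RasGRP3 load, were both higher in the knockout libraries, by less than 1.5-fold. Rap1b (ENSMUSG00000052681, chromosome 10 from 117813871 to 117846035, minus strand), the main Rap1 of platelets, had 93938 counts (1553 CPM) in the PF4-Cre knockout against 82909 (1387 CPM) in wild-type, a ratio of 1.12 (interval 1.11 to 1.13). In ROSA-Cre it had 27425 counts (1225 CPM) in the knockout against 20760 (843.6 CPM) in wild-type, a ratio of 1.45 (1.43 to 1.48). The ROSA-Cre knockout was nevertheless lower than the PF4-Cre wild-type library, so the genotypes overlapped across models.

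Rap1a (ENSMUSG00000068798, chromosome 3 from 105727267 to 105801336, minus strand), whose protein is nearly identical to that of Rap1b, had 6422 counts in the PF4-Cre knockout against 4907 in wild-type, and in ROSA-Cre 1541 in the knockout against 1342 in wild-type. The ratios were 1.29 (interval 1.25 to 1.34) and 1.26 (1.17 to 1.36). Here too the ROSA-Cre knockout, at 68.8 CPM, lay below the PF4-Cre wild-type library at 82.1 CPM. Rap1b was 92.8% and 94.0% of the summed Rap1 level per kb in the PF4-Cre and ROSA-Cre knockouts, and 93.7% and 93.2% in wild-type. Of the Rap1a 50-base stretches, 8.26% also occur in transcripts of other genes, most of them in Gm9392. A small part of its reads may thus not have been assignable to Rap1a alone.

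Rasa3 (ENSMUSG00000031453, chromosome 8 from 13566948 to 13677603, minus strand), the GTPase-activating protein that opposes RasGRP2 on Rap1, differed little between the genotypes. It had 381.5 CPM in the PF4-Cre knockout against 387.1 CPM in wild-type (ratio 0.986, interval 0.968 to 1.004), and 352.2 CPM in the ROSA-Cre knockout against 391.1 CPM in wild-type (0.901, 0.874 to 0.928). With library totals in place of TMM its PF4-Cre log2 ratio changed sign, to 0.05. The level of Rasgrp2 over that of Rasa3 per kb can be read from 129.7 over 86.6 CPM per kb in the PF4-Cre knockout, 119.5 over 87.9 in its wild-type library, 120.3 over 80.0 in the ROSA-Cre knockout and 164.0 over 88.8 in its wild-type library. Rasgrp2 was the higher in each library on this scale and the lower in each over the union of exons.

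**Figure D3:**
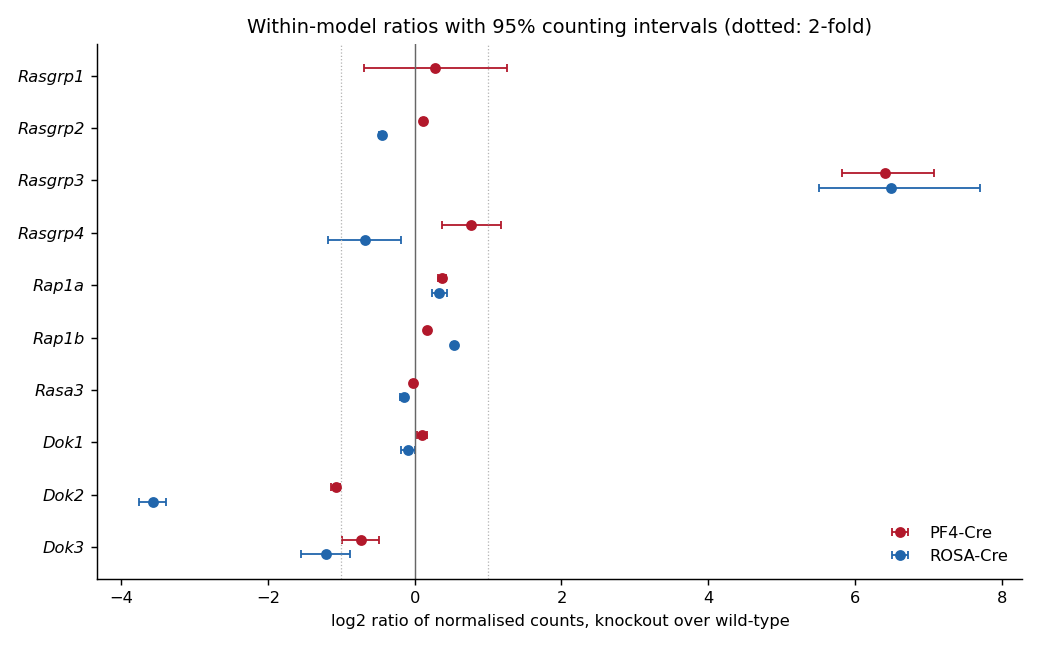
Points give the log2 ratio of TMM-normalised counts, knockout over wild-type, for each gene in PF4-Cre (red) and ROSA-Cre (blue), with 95% Clopper-Pearson counting intervals, and dotted lines mark 2-fold. Rasgrp3 lies alone on the right at 6.41 and 6.49, Dok2 on the left at -1.07 and -3.57, and Rasgrp1 has no ROSA-Cre point because its counts there were under the floor.

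Of the Dok adaptors, Dok2 and Dok3 were lower in both knockout libraries and Dok1 was not. Dok2 (ENSMUSG00000022102, chromosome 14 from 70766036 to 70778495, plus strand) had 3228 counts (53.4 CPM) in the PF4-Cre knockout against 6718 (112.4 CPM) in wild-type. In ROSA-Cre it had 278 counts (12.4 CPM) in the knockout against 3634 (147.7 CPM) in wild-type. It was 2.11-fold lower in the PF4-Cre knockout (ratio 0.475, interval 0.455 to 0.495) and 11.9-fold lower in the ROSA-Cre knockout (0.0841, 0.0742 to 0.095). Both knockout libraries lay below both wild-type libraries, and the knockout libraries differed from each other by 4.30-fold, the ROSA-Cre one being the lower. Among the same 10594 genes, the Dok2 ratio ranked 77 from the lowest in PF4-Cre and 4 from the lowest in ROSA-Cre. Dok2 too had been chosen for this difference, so these ranks are a description only.

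Dok3 (ENSMUSG00000035711, chromosome 13 from 55523231 to 55529296, minus strand), an adaptor of B cells and myeloid cells that recruits a lipid phosphatase, was rare. It had 208 counts in the PF4-Cre knockout against 343 in wild-type, and in ROSA-Cre 106 in the knockout against 269 in wild-type. It was 1.67-fold lower in the PF4-Cre knockout (ratio 0.599, interval 0.502 to 0.714) and 2.31-fold lower in the ROSA-Cre knockout (0.433, 0.343 to 0.544). At 3.44 and 4.73 CPM, both knockout libraries lay below the wild-type libraries at 5.74 and 10.9 CPM.

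Dok1 (ENSMUSG00000068335, chromosome 6 from 83030934 to 83033471, minus strand), which overlaps Dok2 in function in blood cells, had 3884 counts in the PF4-Cre knockout against 3574 in wild-type, and in ROSA-Cre 1652 in the knockout against 1943 in wild-type. The ratios were 1.07 (interval 1.03 to 1.12) and 0.934 (0.875 to 0.998). In CPM it had 64.2 and 73.8 in the PF4-Cre and ROSA-Cre knockouts and 59.8 and 79.0 in their wild-type libraries, so that the Cre models differed more than the genotypes did.

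The Dok genes differed in make-up between the genotypes. Per kb, Dok1 was the most abundant of the 3 genes in both knockouts, at 52.8% of their sum in PF4-Cre and 80.6% in ROSA-Cre, with Dok2 at 44.1% and 13.7%. In the wild-type libraries Dok2 was the most abundant, at 63.1% in PF4-Cre and 62.0% in ROSA-Cre, with Dok1 at 33.4% and 32.9%. The sum itself was 67.4 and 50.6 CPM per kb in the knockouts against 99.2 and 132.6 in wild-type. The level of Dok1 was 35.5 and 40.8 CPM per kb in the knockouts against 33.1 and 43.7 in wild-type, while that of Dok2 was 29.7 and 6.92 against 62.6 and 82.3. These values are per kb of principal transcript. Over the union of exons Dok2 was 54.3% and 53.4% in the PF4-Cre and ROSA-Cre wild-type libraries, with Dok1 at 42.4% and 41.9%. In the knockouts on that length Dok1 was 62.1% and 85.75%, with Dok2 at 35.2% and 9.83%.

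Markers of myeloid cells, in which Dok2 and Dok3 are also known, were also lower in the ROSA-Cre knockout. Of 12 neutrophil and granulocyte precursor markers, 5 were lower and 0 higher by edgeR's genotype test (0 higher too at an unadjusted p under 0.05 and by DESeq2), and none was at 0. Their summed level was 1090.5 CPM in the PF4-Cre knockout against 1811.5 CPM in wild-type (1.66-fold lower), and in ROSA-Cre 513.7 CPM in the knockout against 1959 CPM in wild-type (3.81-fold lower), with Mpo the most abundant on average. The 5 lower ones, Mpo, Ctsg, Elane, Ms4a3 and Prtn3, were 2.83- to 3.69-fold lower in the PF4-Cre knockout and 3.21- to 4.20-fold lower in the ROSA-Cre knockout. The other 7 had PF4-Cre ratios of 0.828 to 1.23 and ROSA-Cre ratios of 0.226 to 0.347. Of 9 monocyte and macrophage markers 2 were lower and 0 higher by the same 3 counts, with sums of 486.4 and 300.0 CPM in the PF4-Cre and ROSA-Cre knockouts against 465.9 and 469.5 CPM in wild-type, led by Lyz2. The Dok2 fold of 2.11 in PF4-Cre was smaller than that of each of the 5 lower neutrophil markers and larger than that of each of the other 7. Its fold of 11.9 in ROSA-Cre was larger than that of each of the 12. The part of these cells in the Dok2 and Dok3 values was not tested.

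Ordered by level per kb, Rap1b held rank 1, Rasgrp2 rank 2 and Rasa3 rank 3 in every library. Rap1a, Dok1 and Dok2 filled ranks 4 to 6, with Dok2 at rank 6 in both knockouts and rank 4 in both wild-type libraries. Rasgrp3 held rank 7 in both knockouts and rank 9 in both wild-type libraries, where only Rasgrp1 was lower. With 1 library per group no replicate spread exists, and the neighbours Rap1a and Dok1 changed places between the PF4-Cre and ROSA-Cre libraries. In the ROSA-Cre knockout Dok2 and Rasgrp3 stood at 6.92 and 6.20 CPM per kb and changed places when the union of exons was used as the length. That length also moved Rasgrp2 to rank 5 or 6.

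The genes whose pair of ratios lay nearest to those of Rasgrp3, by distance in the 2 within-model log2 ratios among 10586 other genes, were Miat, Lamb2 and Cacna1e (distances 0.71, 0.72 and 0.89). Miat, a long noncoding RNA, had a PF4-Cre ratio of 134.3 and a ROSA-Cre ratio of 74.5. Lamb2, a laminin chain, had 63.3 and 134.9, and Cacna1e, a calcium channel subunit, had 142.0 and 63.3. Nearest to Dok2 were Col4a2, Il1r1 and Cnr2 (distances 0.15, 0.46 and 0.46). Col4a2, a chain of basement membrane collagen, was 1.96-fold lower in the PF4-Cre knockout and 11.01-fold lower in the ROSA-Cre knockout, at 212 counts against 410 and 19 against 230. Il1r1, an interleukin receptor, was 2.10-fold and 8.66-fold lower in those knockouts, and Cnr2, a cannabinoid receptor, 2.52-fold and 9.10-fold lower. A likeness over 2 ratios is a description of these libraries.

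The rest of the pathway was described with lists of regulators and partners that leave out the 10 genes. Here the genotype effect was tested across all genes, with the Cre model as a term and the models acting as replicates of each other (n = 2 libraries per genotype, edgeR's quasi-likelihood test, Benjamini-Hochberg adjusted over all genes at 0.05). Of 139 tested pathway genes 27 were higher in the knockouts, or 19.4%, against 12.6% of all tested genes, and 10 were lower, or 7.19%, against 9.59%. In 6 of the 11 lists edgeR called 0 of 73 tested genes lower, while 5 were lower at an unadjusted p under 0.05 and DESeq2 called 2. Without the PF4-Cre knockout, PF4-Cre wild-type, ROSA-Cre knockout or ROSA-Cre wild-type library, in fits that also lack the Cre term, 10, 4, 5 and 10 of these 37 calls remained. Those left in each of the 4 fits were Diras2, Fermt2, Irs1 and Rasal1.

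**Figure D4:**
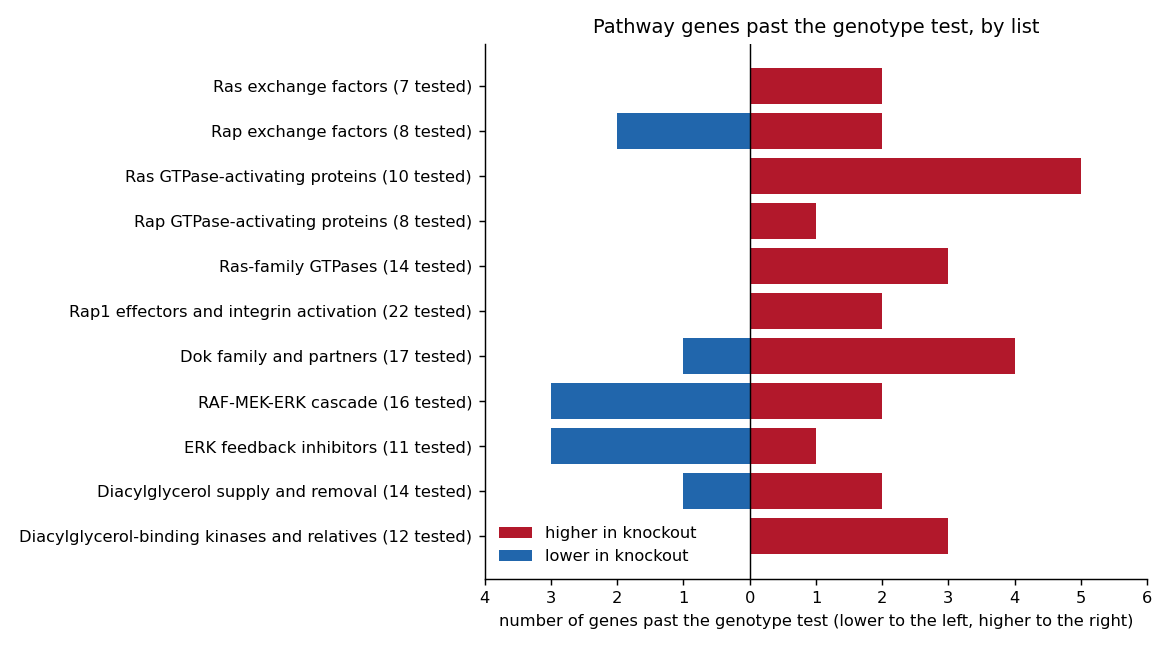
Bars count the genes of each pathway list that passed the genotype test (edgeR, adjusted p under 0.05), higher in knockout to the right and lower to the left, with the number tested in the row label. Ras GTPase-activating proteins had 5 higher and 0 lower, and the ERK feedback inhibitors 1 higher and 3 lower.

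GTPase-activating proteins for Ras, which switch it off, had 5 of 10 higher and 0 lower. Rasa1, named after its values were seen, did not pass (log2 fold change 0.21, SE 0.12). Rasal1, a calcium-responsive member, rose to 208 counts in the PF4-Cre knockout against 9 in wild-type and to 93 against 8 in ROSA-Cre (log2 fold change 4.14, SE 0.47, edgeR adjusted p = 0.00239). Rasal3, found mainly in blood cells, rose by 0.85 (SE 0.15), Rasal2 by 0.68 (SE 0.15) and the neurofibromin gene Nf1 by 0.60 (SE 0.16). The last of the 5, Iqgap1, named after its values were seen, is a scaffold whose GAP-like domain is not known to act on Ras (0.45, SE 0.12). Only Rasal1 kept its call without each library in turn. Among 8 Rap GTPase-activating proteins 1 rose, Rap1gap2, which acts on Rap1 in platelets, at 26.3 and 28.8 CPM in the PF4-Cre and ROSA-Cre knockouts against 6.49 and 11.2 CPM in wild-type (1.71, SE 0.22, edgeR adjusted p = 0.00381, lost without the PF4-Cre wild-type library). Sipa1l2 did not pass (1.02, SE 0.33, edgeR adjusted p = 0.0655).

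Other exchange factors went both ways. Of 7 tested for Ras and Ral, 2 were higher, and both, Rgl1 (log2 fold change 1.11, SE 0.26) and Ralgps1 (0.91, SE 0.25), act on Ral. Of 8 for Rap, Dock4, also an activator of Rac, rose to 109 counts in each knockout against 25 in PF4-Cre wild-type and 16 in ROSA-Cre wild-type (2.46, SE 0.40, edgeR adjusted p = 0.00805), and Rapgef2 rose by 0.52 (SE 0.13). Rapgef5 fell to 44 counts in the PF4-Cre knockout against 174 in wild-type and to 18 against 67 in ROSA-Cre (-1.91, SE 0.36), and Rapgef1, an adaptor-bound activator of Rap1, fell by 0.45 (SE 0.12). The only call of these 6 that was kept in any fit without a library was that of Dock4, without the PF4-Cre knockout and without the ROSA-Cre wild-type library. The call of Rapgef1 also ended with library totals in place of TMM (edgeR adjusted p = 0.0555, log2 fold change -0.40), and that of Ralgps1 with DESeq2 (adjusted p = 0.0532). With no filter on low counts the calls of Ralgps1, Rapgef1 and Rapgef2 ended.

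Of 14 other Ras-family GTPases 3 were higher and 0 lower. Diras2, an atypical family member, rose to 158.9 and 125.4 CPM in the PF4-Cre and ROSA-Cre knockouts against 25.0 and 39.0 CPM in wild-type (log2 fold change 2.18, SE 0.23, edgeR adjusted p = 0.0017). Rras rose to 198 counts against 44 in PF4-Cre and 158 against 33 in ROSA-Cre (2.26, SE 0.33), and Rap2a rose by 0.69 (SE 0.19). Diras2 kept its call without each library in turn, Rras without the PF4-Cre knockout or the ROSA-Cre wild-type library, and Rap2a in no such fit.

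Of 22 tested genes between Rap1 and the integrin, 2 were higher and 0 lower. Fermt2, the kindlin of tissues other than blood, had 491 counts in the PF4-Cre knockout against 11 in wild-type, a ratio of 44.1 (interval 24.4 to 88.9). In ROSA-Cre it had 58 counts in the knockout against 0 in wild-type. That was 21.2-fold higher with 3 counts in place of the 0, and the lower limit of the counting interval was 16.7-fold (edgeR adjusted p over both models = 0.000638). Itgb3 encodes CD61, a marker of the sort gate, and rose to 1611 and 1414 CPM in the PF4-Cre and ROSA-Cre knockouts against 648.9 and 814.0 CPM in wild-type (log2 fold change 1.05, SE 0.18), a call lost in each of the 4 fits without a library. The blood kindlin Fermt3, talin (Tln1) and the adaptor RIAM (Apbb1ip), named after their values were seen, did not pass (log2 fold changes of -0.18, -0.36 and 0.16 with SE of 0.16, 0.19 and 0.23).

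Among Dok relatives and partners 4 of 17 were higher and 1 lower. Irs1, an insulin receptor substrate with the phosphotyrosine-binding fold of Dok proteins, rose to 1534 counts in the PF4-Cre knockout against 20 in wild-type and to 130 against 10 in ROSA-Cre (log2 fold change 5.62, SE 0.49, edgeR adjusted p = 0.000781). The lipid phosphatase gene Inppl1 rose by 1.62 (SE 0.15), Pag1, which anchors the kinase Csk at membranes, by 0.58 (SE 0.13), and the adaptor Nck2, named after its values were seen, by 0.59 (SE 0.16). Csk itself fell by 0.56 (SE 0.13). Irs1 kept its call without each library in turn and Inppl1 without the PF4-Cre knockout or the ROSA-Cre wild-type library, while the calls of Pag1, Nck2 and Csk ended in all 4 fits.

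In the RAF-MEK-ERK cascade downstream of Ras, 2 of 16 genes were higher and 3 lower. The adaptor Gab1 rose by a log2 fold change of 1.20 (SE 0.18) and the scaffold Ksr2, at 49 counts in the PF4-Cre knockout against 17 in wild-type and 41 against 15 in ROSA-Cre, by 1.54 (SE 0.43). The scaffold Ksr1 fell by 0.69 (SE 0.13), the kinase Map2k2 by 0.59 (SE 0.14) and the adaptor Grb2, named after its values were seen, by 0.53 (SE 0.15). Of 11 inhibitors of this cascade 3 were lower and 1 higher. Dusp6, an ERK phosphatase that ERK signalling itself induces, fell to 887 counts in the PF4-Cre knockout against 2441 in wild-type and to 109 against 382 in ROSA-Cre (-1.56, SE 0.19, edgeR adjusted p = 0.00293). Pebp1, a RAF inhibitor, fell by 0.57 (SE 0.13), and Spry4, a Sprouty inhibitor with 8 counts in the PF4-Cre knockout against 30 and 1 in the ROSA-Cre knockout against 10, fell by 2.12 (SE 0.59), while the ERK phosphatase Dusp5 rose by 1.34 (SE 0.27). Of these 9 calls only that of Dusp6 was kept in any fit without a library, the PF4-Cre knockout or the ROSA-Cre wild-type one, and that of Ksr2 also ended with DESeq2 (adjusted p = 0.271).

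Diacylglycerol, the lipid that recruits RasGRP proteins to membranes, is made by phospholipases C and removed by diacylglycerol kinases. Of 14 tested genes of either kind 2 were higher and 1 lower, all of them kinases. Dgkd rose to 667.8 and 587.1 CPM in the PF4-Cre and ROSA-Cre knockouts against 365.3 and 419.7 CPM in wild-type (log2 fold change 0.68, SE 0.15), Dgkh rose by 1.22 (SE 0.22), and Dgkg fell by 0.54 (SE 0.13). Of 12 other proteins with a diacylglycerol-binding domain or related to them, 3 were higher and 0 lower, namely the Rac-directed chimaerin Chn2 (1.27, SE 0.14, edgeR adjusted p = 0.00198), the protein kinase D gene Prkd3 (0.86, SE 0.18) and the protein kinase C gene Prkca (0.60, SE 0.16). Without 1 library these calls ended, except for Chn2 without the PF4-Cre knockout or the ROSA-Cre wild-type library.

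**Figure D5:**
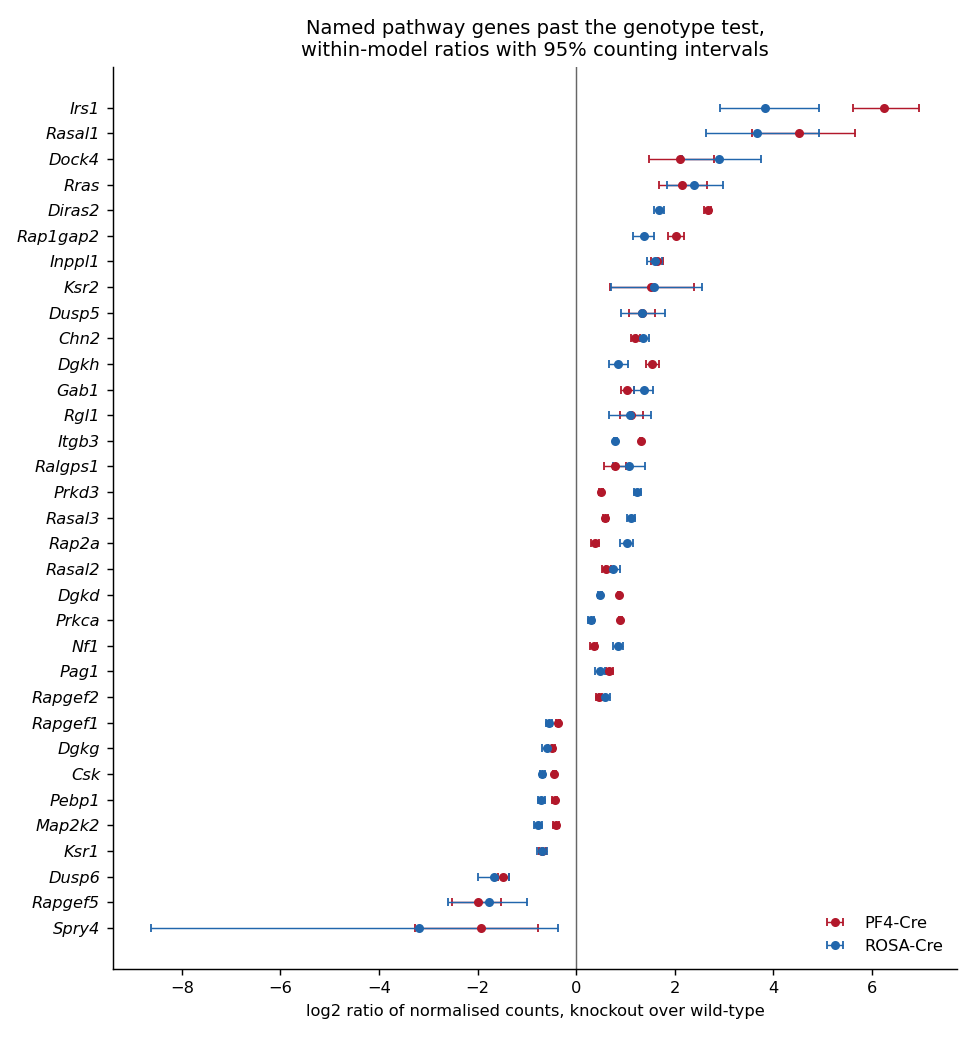
Each row is a named pathway gene past the genotype test, ordered by its fitted fold change, with its log2 ratio of normalised counts, knockout over wild-type, in PF4-Cre (red) and ROSA-Cre (blue) and 95% counting intervals. Fermt2 is left out because its ROSA-Cre wild-type count was 0, and every gene shown lies on the same side of 0 in both models, a condition the test over both models favours.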

How the data were processed

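RNA of sorted megakaryocytes was sequenced with a stranded paired-end TruSeq mRNA kit, per the labels' protocols. Alignment and counting tools listed in the submitters' processing notes include TopHat2 2.0.10 and HTSeq, with mm10 and GRCm38 as builds. The authors deposited raw read counts per Ensembl gene, 1 table per library. For the annotation release and the strand setting of the counting, no value is given in the sources used here. Reads with no gene (32.1% to 36.2% of gene, unassigned and ambiguous reads together) stayed out of library sizes.

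Symbols (40254 of 41214 identifiers), coordinates and lengths came from GENCODE M21 (GRCm38). CPM were scaled to TMM library sizes. Ratios within a model carry 95% Clopper-Pearson intervals (scipy 1.17.1), and a count of 0 stood at a floor of 3 for fold counts. The genotype test used edgeR 4.0.16 in R 4.3.3 on genes passing filterByExpr (minimum count 10), which all 10 genes passed, with Cre model and genotype as terms. It left 1 residual and 6.25 prior degrees of freedom and a common biological coefficient of variation of 16.1%. Each SE is the absolute fitted log2 change divided by √F. The spread it measures is that between the Cre models, moderated across genes. It is therefore not the observed difference between the models for a single gene.

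The genes, lists and rules were chosen with earlier results of these data known. Genes named by rule were the 10 genes, up to 4 past the test per pathway list by p-value (2 of smallest p where fewer than 2 passed), the most abundant marker per cell type and the 3 genes nearest to Rasgrp3 and Dok2. Alternatives were DESeq2 1.42.0, its size factors, library totals, other filters, pseudocount and folds, the older quasi-likelihood method, no Cre term and each library left out. The script was tested on simulated data. Per-kb lengths were chosen after seeing the data.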

Additional observations from a re-analysis of the deposited data

Results flagged for a closer look

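For 3 of the genes the knockout library lay on opposite sides of its wild-type library in the PF4-Cre and ROSA-Cre pairs. The PF4-Cre ratio was 1.48 times the ROSA-Cre ratio for Rasgrp2, 2.74 times for Rasgrp4 and 1.15 times for Dok1. With 1 library per group these differences between the models were not tested.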

How the results depend on the processing

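With DESeq2 size factors, library totals or a pseudocount of 1 for the within-model ratios, 47 of 57 recomputed values of the 10 genes stayed inside their counting intervals, 9 moved outside, and 1 changed sign, Rasa3 in PF4-Cre with library totals (log2 ratio 0.046, against -0.02). The count of genes past the fold in both models was 1 higher throughout, and 1 lower at 2-fold, 2 at 1.5-fold and 0 at 4-fold. Without the Cre model term, 158 genes were higher and 4 lower, and 2 and 0 of the pathway genes (edgeR, where 4 were lower at an unadjusted p under 0.05; DESeq2, run with the term, called 11). Leaving out 1 library, which also drops that term, gave 418 to 741 higher and 56 to 142 lower, and 4 to 9 and 0 to 2 pathway genes. With no filter on low counts, 529 genes were lower (1406 higher), and 3 pathway genes were lower. The cause was not tested. Over the 375 refits of named pathway genes, 217 kept their call status and 158 lost it, 0 of them with a change of sign. The labels give no replicate numbers, and the Cre model term in the main test pairs each knockout with the wild-type library of its model. The share of Rasgrp3 in the RasGRP sum moved to 18.7% and 18.1% in the knockouts with the exon union as length. At 0 and 1 counts no ROSA-Cre ratio of Rasgrp1 could be given.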
